A study of Homo sapiens with 13 samples.

Results

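In PANC1 cells, 1877 narrow H3K4me3 regions carried no H3K27ac region and lay away from the ends of coding genes. They were chosen from 15638 reproducible H3K4me3 regions, of which they make up 12.003%. A reproducible region is a merged stretch of peaks holding at least 1 peak from each of the 2 replicate libraries, on chromosomes 1 to 22 and X. Of these, 14355 were under 3000 bp wide, 5989 of those overlapped no reproducible H3K27ac region, 2022 of those lay farther than 1 kb from both ends of every RefSeq coding gene, and 1877 of those also lay farther than 1 kb from any tRNA gene. The choice therefore used H3K4me3, H3K27ac, width and gene ends, and values of these are given below as a description without a test.

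All libraries came from PANC1, an established human pancreatic carcinoma line, in a stable derivative that expresses BRG1 and is titled "BRG oe" in the labels. BRG1 is the product of SMARCA4 and the ATPase of the BAF chromatin remodelling complex, and SMARCC1 is a core subunit of that complex. Protein-bound and histone-marked DNA was recovered by CUT&RUN after mild crosslinking, with 2 libraries each for H3K4me3, H3K27ac, H3K4me1, BRG1, NRF2 and SMARCC1. No library lacked the BRG1 construct among those used here, the labels do not say whether the line is 1 clone or whether replicates were separate cultures, and the IgG library was not analysed here, so these values describe 1 line and no change caused by BRG1.

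H3K4me3 is laid down at the first nucleosomes behind active or poised transcription starts, most densely where DNA is rich in CpG. H3K27ac marks active promoters and enhancers, and promoters of weakly transcribed or Polycomb-bound genes often hold H3K4me3 with little or none of it. Many coding genes use alternative promoters inside the gene span, and long noncoding RNAs (lncRNAs), microRNA hosts, small RNA genes and expressed pseudogenes have starts of their own, so H3K4me3 away from the outer ends of coding genes can lie at any of these.

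The starts printed here are those inside or nearest to regions that the results turn on: internal starts of RUVBL1 and EXOC6, among the 10 strongest regions; internal starts of RASEF and SCHIP1, near the regions that held a BRG1 site; and the starts of MIR17HG, CRNDE and DANCR, noncoding genes. Each runs 5′ to 3′ on the strand of its gene, from 250 bases before the start to 50 after it, from RefSeq on GRCh38.p14. Capitals mark the motifs found by a search of both strands.
RUVBL1, chr3:128123763-128124062 (- strand): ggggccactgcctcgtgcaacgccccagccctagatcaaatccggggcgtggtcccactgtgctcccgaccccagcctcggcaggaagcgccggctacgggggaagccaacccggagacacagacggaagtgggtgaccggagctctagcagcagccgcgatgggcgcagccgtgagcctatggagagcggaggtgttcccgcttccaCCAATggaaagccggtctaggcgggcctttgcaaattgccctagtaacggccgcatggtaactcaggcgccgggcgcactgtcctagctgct
EXOC6, chr10:92848270-92848569 (+ strand): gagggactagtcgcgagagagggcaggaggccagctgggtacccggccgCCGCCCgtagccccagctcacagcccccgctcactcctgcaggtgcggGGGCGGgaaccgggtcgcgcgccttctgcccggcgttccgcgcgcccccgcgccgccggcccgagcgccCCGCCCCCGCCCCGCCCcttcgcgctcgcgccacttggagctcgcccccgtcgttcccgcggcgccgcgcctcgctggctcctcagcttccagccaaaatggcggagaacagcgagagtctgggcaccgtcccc
RASEF, chr9:83063093-83063392 (- strand): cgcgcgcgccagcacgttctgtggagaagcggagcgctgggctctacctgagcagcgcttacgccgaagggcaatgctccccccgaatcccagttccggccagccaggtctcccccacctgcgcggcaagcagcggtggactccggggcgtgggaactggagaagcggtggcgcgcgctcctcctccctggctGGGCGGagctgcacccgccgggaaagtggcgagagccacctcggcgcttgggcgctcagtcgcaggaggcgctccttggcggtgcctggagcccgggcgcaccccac
SCHIP1, chr3:159763432-159763731 (+ strand): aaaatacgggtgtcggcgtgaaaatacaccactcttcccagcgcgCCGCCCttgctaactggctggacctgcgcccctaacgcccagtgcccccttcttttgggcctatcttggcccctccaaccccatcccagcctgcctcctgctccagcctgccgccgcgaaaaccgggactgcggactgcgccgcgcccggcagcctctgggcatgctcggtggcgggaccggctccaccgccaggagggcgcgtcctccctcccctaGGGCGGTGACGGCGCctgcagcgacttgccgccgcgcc
MIR17HG, chr13:91347437-91347736 (+ strand): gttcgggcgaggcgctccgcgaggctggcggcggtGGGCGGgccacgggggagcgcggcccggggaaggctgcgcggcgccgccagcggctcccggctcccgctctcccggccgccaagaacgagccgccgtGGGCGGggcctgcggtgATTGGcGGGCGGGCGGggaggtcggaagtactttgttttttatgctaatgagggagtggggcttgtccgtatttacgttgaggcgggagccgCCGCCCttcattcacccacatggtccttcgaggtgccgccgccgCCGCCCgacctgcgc
CRNDE, chr16:54928837-54929136 (- strand): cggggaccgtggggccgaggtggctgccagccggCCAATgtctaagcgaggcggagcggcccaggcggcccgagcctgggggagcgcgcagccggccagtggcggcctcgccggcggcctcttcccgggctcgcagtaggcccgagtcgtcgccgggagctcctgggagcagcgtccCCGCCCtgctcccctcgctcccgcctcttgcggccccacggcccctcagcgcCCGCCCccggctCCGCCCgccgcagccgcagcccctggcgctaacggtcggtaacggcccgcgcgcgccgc
DANCR, chr4:52712144-52712443 (+ strand): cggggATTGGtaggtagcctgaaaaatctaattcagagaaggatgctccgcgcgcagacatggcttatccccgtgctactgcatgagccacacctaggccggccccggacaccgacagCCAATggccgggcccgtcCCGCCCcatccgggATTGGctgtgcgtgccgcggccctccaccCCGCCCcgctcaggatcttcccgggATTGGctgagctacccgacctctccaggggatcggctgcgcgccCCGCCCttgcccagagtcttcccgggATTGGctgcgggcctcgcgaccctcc
The RUVBL1, EXOC6, CRNDE and DANCR starts lie inside their member, and the MIR17HG, RASEF and SCHIP1 starts lie outside it by 1 bp, 19 bp and 320 bp, so the SCHIP1 window does not reach its member or the BRG1 site there. All but the RUVBL1 and RASEF windows held more than 1 motif match. The RUVBL1 window held 1 CCAAT box and no GC box, RASEF held 1 GC box, and EXOC6 held 5 GC boxes, of which neighbouring matches touch or overlap. The CRNDE window held 1 CCAAT box and 3 GC boxes, MIR17HG 1 CCAAT box and 6 GC boxes, and DANCR 5 CCAAT boxes and 3 GC boxes. In the SCHIP1 window a GC box was followed directly by TGACGGCGC, a match to the antioxidant response element that NRF2 with a small MAF partner can bind, though no NRF2 site lay there. The GC content of the 7 windows ran from 66% for RUVBL1 to 80% for CRNDE.

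Starts inside members were rich in CpG, as were those inside acetylated H3K4me3 regions. The start table covers coding and lncRNA genes on the chromosomes that hold 1803 of the 1877 members, with 34961 starts in all, and 433 of these starts lay inside a member. Their median GC content was 67.3%, beside 58.7% for all starts and 49.7% for the 19335 starts with no H3K4me3 region within 1 kb. The ratio of observed to expected CpG was above 0.6 in 83.1% of the members' starts, in 83.3% of 932 starts inside comparable regions with H3K27ac, in 48.9% of all starts and in 18.3% of starts without H3K4me3. The median ratio was 0.814 for the members' starts and 0.824 for those inside the acetylated regions. Starts of neighbouring transcripts overlap, so these windows are not independent.

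The GC box (GGGCGG), a site for SP and KLF proteins, was found in 74.6% of the members' starts, beside 70.8% in those with H3K27ac, 45.0% of all 34961 and 22.6% of starts without H3K4me3. The CCAAT box (CCAAT), bound by NF-Y, was found in 37.9%, beside 34.6% of all starts, and the TATA box (TATAAA) in 4.39%, beside 11.5%. The ETS motif (CCGGAAG) was found in 12.7%, beside 15.5% in starts with H3K27ac and 10.3% of all starts. The YY1 motif was found in 3 of 433 starts or 0.693%, beside 1.82% with H3K27ac and 1.21% of all, and the NRF1 motif in 3 or 0.693%, beside 3.33% and 1.24%. AP-1 (TGACTCA or TGAGTCA) was found in 2.08%, beside 4.92% of all starts, the cyclic AMP response element (TGACGTCA) in 2.08%, beside 1.85%, the E-box (CACGTG) in 8.08%, beside 7.27%, the antioxidant response element (TGACNNNGC) in 10.9%, beside 13.4%, and the polymerase III B box in 0.462%, beside 0.186%. TGACTCA followed by GC matches both AP-1 and the antioxidant element, and such starts count in both shares. A match is a run of letters and does not show that a factor was bound.

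The members were weak H3K4me3 regions. Their fold enrichment, as deposited by the authors, had a median of 4.85 in replicate 1 and 4.93 in replicate 2, beside 10.8 and 11.4 for all H3K4me3 regions. It ran from 1.91 to 26.6 in replicate 1 and from 1.98 to 27.1 in replicate 2, and 119 members (6.34%) were above the median of all regions in both libraries. The median width was 554 bp, beside 1347 bp for all regions. Across members, log2 fold in the 2 libraries had a Pearson correlation of 0.825 and a Spearman correlation of 0.763 over 1877 regions of the same 2 libraries, and 37 members differed more than 2-fold between libraries. Of the members, 697 (37.1%) had a −log10 q of at least 5 in both libraries, beside 76.6% of all H3K4me3 regions. The H3K4me3 lists reach down to a −log10 p of 2.03 in replicate 1 and 2.01 in replicate 2. The lowest −log10 q among members was 0 in each library. The lists hold no read counts, so the depth behind each fold is unknown.

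**Figure D1:**
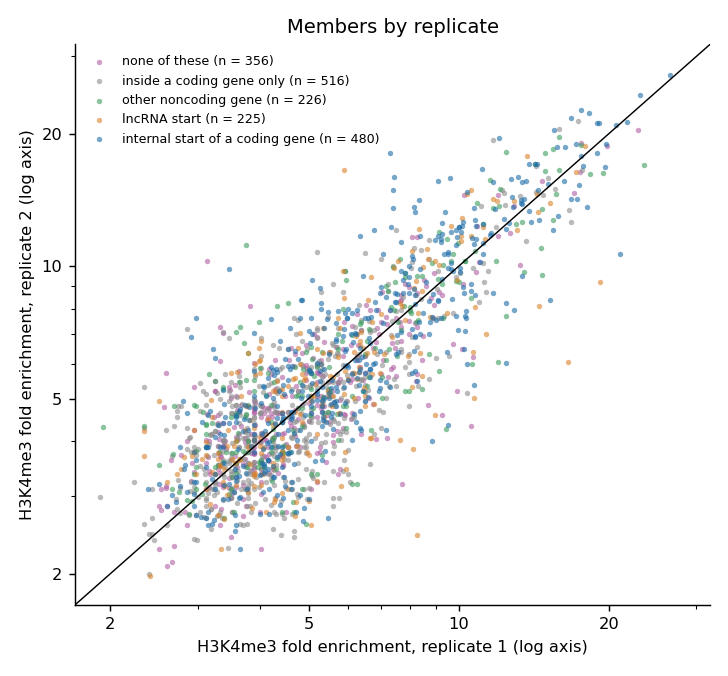
H3K4me3 fold enrichment of each member in replicate 1 (x, log axis) and replicate 2 (y, log axis), coloured by class, for the 1803 members on chromosomes with annotated starts; the line marks equal folds. Most points lie between 3 and 10 in both libraries, and the highest, at an internal start of ANKRD54, lies at 26.6 and 27.1.

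Each member was placed in 1 class by the first feature that applied: a coding start within 1 kb, then a lncRNA start, then an end of another noncoding gene, then the span of a coding gene. Of 1803 members, 480 (26.6%, exact 95% interval 24.6 to 28.7) lay within 1 kb of an internal annotated start of a coding gene, beside 71.5% of all H3K4me3 regions within 1 kb of any coding start; the rule removes the outer ends, so this difference is set by it. A further 225 (12.5%) lay at a lncRNA start and 226 (12.5%) beside another noncoding gene. Another 516 (28.6%) lay inside a coding gene with no such feature, and 356 (19.7%) at none of these. The start list holds 22132 coding starts, beside 19974 annotated coding genes. It can lack starts, so a class without a start means without a listed one. Intervals here and below are Clopper-Pearson and cover counting error only.

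**Figure D2:**
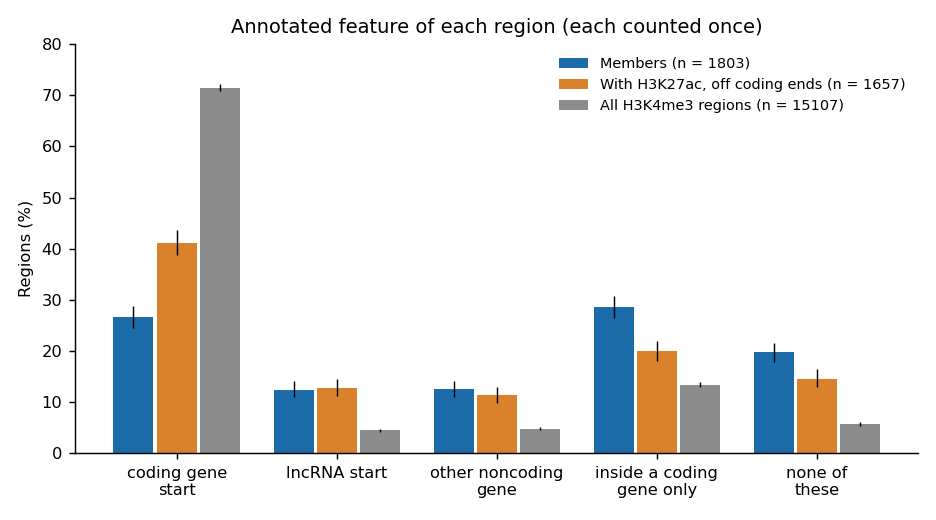
Share of regions in each class (y, percent, bars with exact 95% intervals) for members, for H3K4me3 regions with H3K27ac off coding ends, and for all H3K4me3 regions. Members have 26.6% at a coding gene start where acetylated regions off coding ends have 41.2%. Inside a coding gene with no listed start, members have 28.6% and acetylated ones 20.04%.

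The acetylated H3K4me3 regions off coding ends numbered 1701, with 1657 on chromosomes with starts. They were chosen by the same distances and widths, and the rule for them differs in H3K27ac alone. Of them, 41.2% (38.8 to 43.6) lay at an internal coding start, beside 26.6% of the members, and the intervals do not overlap. At lncRNA starts the shares were 12.8% and 12.5%, with overlapping intervals. Inside coding genes with no listed start they were 20.04% (18.1 to 22.0) and 28.6% (26.5 to 30.8). The acetylated set was also stronger, with a median fold of 8.73 in replicate 1 and 9.25 in replicate 2, and wider, with a median of 1149 bp, and the part of strength or width in these shares was not tested.

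The order of the classes by strength was much the same in both libraries. Members at internal coding starts had median folds of 5.68 and 5.87 in replicates 1 and 2, those at lncRNA starts 5.06 and 5.06, those beside other noncoding genes 5.07 and 5.30, those inside a coding gene alone 4.41 and 4.41, and those at no feature 4.43 and 4.64. The quartiles overlapped between all classes. Of the 470 strongest members by mean rank, 40.9% of those on chromosomes with starts lay at an internal coding start, against 17.6% of the 469 weakest, while the share inside a coding gene alone went from 16.4% to 37.4%.

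**Figure D3:**
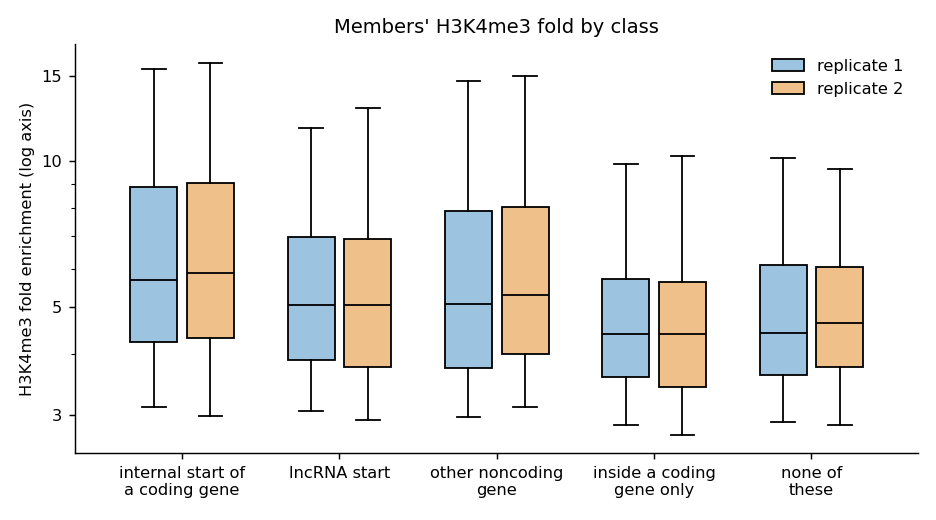
H3K4me3 fold enrichment (y, log axis) of members by class in replicate 1 and replicate 2; boxes span the quartiles, the line is the median and whiskers reach the 5th and 95th percentiles. Medians run from 5.68 and 5.87 at internal coding starts to 4.41 and 4.41 inside coding genes alone.

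Of the 10 members with the best mean rank over both libraries, 9 lay within 1 kb of an internal start of a coding gene, and 7 held one. ANKRD54, an ankyrin repeat protein, had folds of 26.6 in replicate 1 and 27.1 in replicate 2 (mean 26.9 ± 0.382, SD, n = 2) at chromosome 22 from 37843136 to 37844391, with the summit 50 bp downstream of the start. RUVBL1, an ATPase of several chromatin remodelling complexes, had 23.1 and 24.5 (23.8 ± 0.991, SD, n = 2) at chromosome 3 from 128122652 to 128124012. HSP90AA1, the inducible cytosolic HSP90 chaperone, had 21.8 and 21.2 (21.5 ± 0.371, SD, n = 2), with the region running 2822 bp from an internal start.

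The remaining 6 genes have varied roles. L3MBTL3, a reader of methylated lysine, had folds of 20.7 and 21.0, and BRWD1, a bromodomain protein, had 18.3 and 22.2. SUFU, an inhibitor of Hedgehog signalling, had 19.1 and 21.1, and FNBP1, a membrane-bending adaptor, had 18.95 and 21.2. SCAP, the escort protein of the SREBP sterol sensors, had 17.6 and 22.7, and EXOC6, a subunit of the exocyst, had 19.7 and 18.96. The BRWD1 and L3MBTL3 regions lie beside the start and not over it, with gaps of 703 bp and 323 bp, and each start lies inside a neighbouring H3K4me3 region, acetylated at BRWD1 (folds of 9.38 and 13.7) and unacetylated at L3MBTL3 (36.4 and 37.9). In both libraries all of these members stood above the median of all H3K4me3 regions. The other 1 of the 10, at chromosome 1 from 120556637 to 120557203, had 22.9 and 20.3 and lay inside the transcribed pseudogene PDE4DIPP2, 87009 bp and 108233 bp from its ends.

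How the internal start compared with the outer 5′ end of the same gene varied from gene to gene. Internal here means inside the annotated gene span. At some genes, among them BRWD1, SUFU, SCAP and RASEF, the internal start is the only start listed. The outer end there is the limit of the gene record and not a second listed start. Among 408 coding genes with an internal start at a member, the outer 5′ end also had H3K4me3 within 1 kb in 189 (46.3%). It had none in 219 (53.7%). Of the 189, the outer end had the higher fold in both libraries in 122 and the internal region in 49. The outer end had H3K27ac in 105 genes (25.7%).

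Individual genes show each pattern. At EXOC6 and BRWD1 no reproducible H3K4me3 lay at the outer end, and at BRWD1 the member and the acetylated region beside it both lay inside the gene. RUVBL1 had folds of 5.31 and 6.83 at its outer end, below the 23.1 and 24.5 of the internal region, and SUFU had 10.5 and 10.9, below 19.1 and 21.1. HSP90AA1 had the reverse, with 50.3 and 61.3 at the outer end. At L3MBTL3 the region at the outer end, with 36.4 and 37.9, also holds the internal start beside the member. The outer and internal starts of L3MBTL3 are therefore not told apart. Annotated gene spans often include rare upstream transcripts, and no RNA was measured here, so which start these cells use is not known from these lists.

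The members' summits lay mostly downstream of the start, where the first nucleosomes sit. Relative to the nearest internal coding start, the summit of 341 of 480 members (71.0%, 66.8 to 75.1) was downstream, at a median of 216 bp. In the acetylated regions off coding ends 583 of 682 (85.5%, 82.6 to 88.0) were downstream, at a median of 377 bp. Among all H3K4me3 regions near a coding start the share was 80.1%. At lncRNA starts 189 of 304 members (62.2%, 56.5 to 67.6) had the summit downstream, at a median of 143.5 bp. There the share was 54.7% in acetylated regions off coding ends. It was 42.5% in all H3K4me3 regions, whose median summit lay upstream, at -256 bp. The coding starts themselves lay inside 256 members, and lncRNA starts inside 131.

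**Figure D4:**
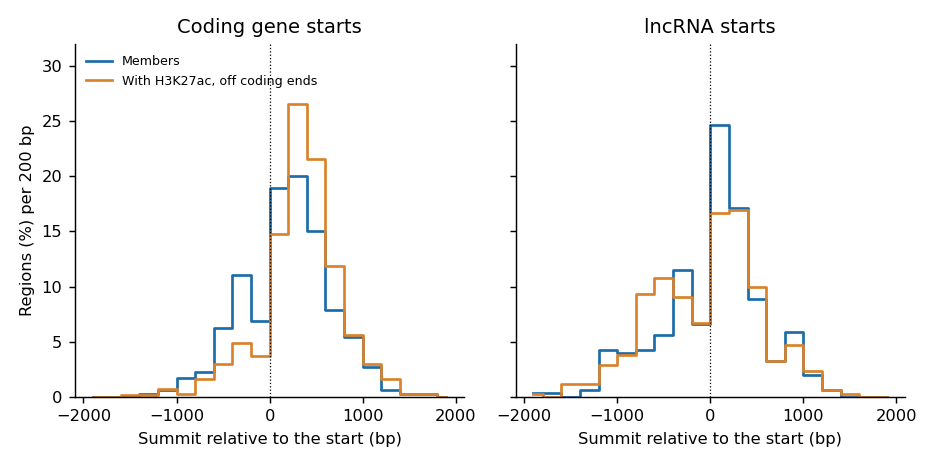
Position of the H3K4me3 summit relative to the nearest annotated start (x, bp, positive downstream) as a share of regions per 200 bp (y, percent), for coding and lncRNA starts, in members and in acetylated regions off coding ends. At coding starts 71.0% of members and 85.5% of acetylated regions lie to the right of 0.

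Noncoding genes lay near members about as often as near H3K4me3 regions in general. Of 1877 members, 569 (30.3%, 28.2 to 32.4) had an end of a noncoding gene within 1 kb, beside 28.3% of all H3K4me3 regions. A lncRNA end lay near 419 (22.3%), beside 24% of all, and a miRNA near 27 (1.44%), beside 1.55%. Pseudogenes were near 154 (8.20%, 7.002 to 9.54), beside 3.37%, and the acetylated regions off coding ends had a like share of 7.70%. Small nuclear RNA genes were near 4 (0.213%), beside 0.109%, and small nucleolar RNA genes near 5 (0.266%), beside 0.537%. Small RNA genes of the remaining kinds, such as vault and Y RNA, were near 11 (0.586%), beside 0.179%.

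Among lncRNAs and hosts, the best ranked regions often sat at starts shared with a coding gene. BRWD1-AS2 and LOC105377073 share the BRWD1 and SCAP regions given above, PRKCZ-DT had folds of 16.8 and 21.7, and MORF4L2-AS1 had 23.5 and 17.0. From a list of lncRNAs known in cancer and chromatin biology, 43 of 45 symbols were found in the annotation, 2 lay at members, 23 at H3K4me3 regions with H3K27ac, 4 at other unacetylated H3K4me3 regions and 14 at none. Among all 18196 lncRNA genes, 405 (2.226%) lay at members and 82.3% had no H3K4me3 region within 1 kb. CRNDE, a lncRNA often raised in tumours, had folds of 14.4 and 13.3 (13.9 ± 0.772, SD, n = 2), and DANCR, which also hosts SNORA26 and MIR4449, had 8.46 and 5.64 (7.05 ± 1.99, SD, n = 2).

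MicroRNA genes at members include 3 loci whose neighbouring microRNAs share seeds, printed because the seed sets which messages a microRNA pairs with. Of 32 miRNA genes within 1 kb of members, 29 had a mature sequence in RefSeq. Capitals mark the seed, bases 2 to 8.
hsa-miR-17-5p: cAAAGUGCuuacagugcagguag
hsa-miR-20a-5p: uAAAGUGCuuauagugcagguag
hsa-miR-18a-5p: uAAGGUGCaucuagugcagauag
hsa-miR-19a-3p: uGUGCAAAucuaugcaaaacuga
hsa-miR-19b-3p: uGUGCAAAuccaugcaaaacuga
hsa-miR-92a-3p: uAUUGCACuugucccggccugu
hsa-miR-130b-3p: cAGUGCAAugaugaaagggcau
hsa-miR-301b-3p: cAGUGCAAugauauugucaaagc
hsa-miR-132-3p: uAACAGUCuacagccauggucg
hsa-miR-212-3p: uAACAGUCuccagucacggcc
hsa-miR-210-3p: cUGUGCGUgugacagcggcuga
hsa-miR-658: gGCGGAGGgaaguagguccguuggu
At MIR17HG, miR-17-5p and miR-20a-5p share AAAGUGC and miR-19a-3p and miR-19b-3p share GUGCAAA, while miR-18a-5p and miR-92a-3p have seeds of their own. The pair miR-130b-3p and miR-301b-3p share AGUGCAA, and miR-132-3p and miR-212-3p share AACAGUC.

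MIR17HG, the host of the miR-17 to miR-92a cluster and a target of MYC, had H3K4me3 folds of 13.7 and 17.8 (15.8 ± 2.88, SD, n = 2) over 2648 bp at chromosome 13 from 91347688 to 91350335. The region began 1 bp after the annotated start, with the summit 558 bp downstream. The mature sequences of all 6 microRNA genes lay past its end, from 91350618 to 91351382, and each gene had an end within 1 kb. The region at MIR130B and MIR301B had 10.9 and 13.9, and that at MIR210HG, host of the hypoxia-induced miR-210, had 11.2 and 12.3. One of the 2 regions at MIR132 and MIR212 had 4.10 and 4.16 and the other 3.38 and 3.46. From a list of 26 microRNA genes and hosts, 4 lay at members, these being MIR17HG, MIR210HG, MIR193BHG and MIR9-2. Another 6 lay at acetylated H3K4me3 regions, 1 at another unacetylated one and 15 at none. The list mixes miRNA genes with host genes, and MIR17HG, MIR210HG and MIR193BHG are hosts. Over the whole annotation, 32 of 1911 miRNA genes (1.67%) and 405 of 18196 lncRNA genes (2.226%) lay at members. MIR193BHG had 7.09 and 6.30, and MIR9-2 had 3.38 and 2.68.

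Some small RNA genes, most of them read by polymerase III, held narrow H3K4me3 regions. From a list of 33, 11 lay at members, 8 at acetylated regions, 2 at other unacetylated ones and 12 at none. Among all 1499 annotated small RNA genes other than miRNA and tRNA, 19 (1.27%) lay at members and 1313 (87.6%) had no H3K4me3 region within 1 kb. RN7SL1, the RNA of the signal recognition particle, had folds of 19.5 and 16.3. The spliceosomal U6 gene RNU6-8 had 7.51 and 6.26, RNU6-1 had 6.78 and 6.51 and the minor-spliceosome RNU6ATAC had 4.44 and 3.89. TERC, the telomerase RNA, had 5.12 and 5.64. VTRNA1-1 and VTRNA1-3, vault RNAs, had 7.36 and 6.90, and 5.09 and 4.76. Of the genes just given, RN7SL1 was above the median of all H3K4me3 regions in both libraries and the others were below it in both.

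The Y RNA genes, whose products bind the Ro protein, stood together on chromosome 7, with all 4 genes at members. RNY3 had H3K4me3 folds of 6.62 and 7.21, RNY1, beside the lncRNA GHET1, had 5.73 and 7.62, and RNY5 had 5.37 and 4.63. RNY4 had 2 members, 1 with 7.80 and 5.19 and the other with 5.203 and 3.38. Near-identical pseudogene copies of Y RNA, U6 and RN7SL genes are spread over the genome, so where the authors' alignment placed such reads is uncertain.

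Pseudogenes included some of the stronger members. RRP7BP had folds of 17.6 and 18.9, PDPR2P 15.9 and 19.7, SBDSP1 18.3 and 16.2 and ANAPC1P2 15.5 and 18.4. MIR3180-3, with the pseudogene PKD1P5, had 15.9 and 16.5 on a duplicated stretch of chromosome 16. These pseudogenes have close copies elsewhere in the genome, so the assignment of reads between copies is uncertain.

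Inside coding genes, members leaned to the 5′ side. That lean was not measured in other H3K4me3 regions, so it is not shown to be particular to members. Of all members 1159 (61.7%, 59.5 to 64.0) lay inside a coding gene span, beside 82.8% of all H3K4me3 regions, a share that the distance from gene ends lowers. Of 415 members inside a coding gene of known strand with no listed start nearby, 289 (69.6%, 65.0 to 74.0) were nearer the 5′ end. Within 5 kb of that end lay 209 (50.4%), against 66 (15.9%) within 5 kb of the 3′ end. Whether unlisted starts lie at these members was not tested. The strongest were at A1BG (17.4 and 21.4), a plasma glycoprotein gene, ERBB2 (15.9 and 20.5), which encodes the receptor tyrosine kinase HER2, HNRNPU (17.7 and 16.6), a nuclear RNA-binding protein, and CASZ1 (15.1 and 15.9), a zinc finger transcription factor. The A1BG and HNRNPU regions lay 1333 bp and 1364 bp from a coding gene end, close to the distance limit, while the ERBB2 region lay 11639 bp and the CASZ1 region 56683 bp away.

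Members close to a coding end often had another H3K4me3 region nearby. Another H3K4me3 region lay within 3 kb of 968 members (51.6%), beside 39% of all H3K4me3 regions. Unacetylated regions at coding ends had a like share of 50.2%, and acetylated regions off coding ends had 39.0%. Of the 539 members up to 3000 bp from a coding end, 400 (74.2%) had one. The share was 47.0% from 3000 to 10000 bp, 34.7% from 10000 to 50000 bp and 49.2% (162 of 329) beyond that, so it did not fall steadily with distance. The 352 members within 1000 bp of an H3K27ac region lay in 331 cases (94.0%) within 3 kb of an H3K4me3 region that was itself acetylated, and their median fold was 4.42 and 4.11. The median member lay 26239 bp from the nearest H3K27ac region.

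SMARCA4, which encodes the BRG1 protein that these cells express stably, held 4 members along its gene body, far from the gene's own promoter. The gene spans 101244 bp on chromosome 19 from 10961030 to 11062273, and its promoter region had H3K4me3 folds of 29.0 and 24.3 with H3K27ac. The members were narrow, at 11034799 to 11035117 (319 bp, folds 6.37 and 7.15), 11041315 to 11041553 (239 bp, 5.98 and 4.93), 11058665 to 11059032 (368 bp, 7.96 and 6.07) and 11059678 to 11060155 (478 bp, 7.96 and 5.68). All 4 were seen in both libraries and lay above the members' median fold in both, except that the second, at 4.93 in replicate 2, was level with it.

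Another narrow region in the same gene, at 11021723 to 11021956, had H3K4me3 folds of 5.88 and 5.88 and H3K27ac folds of 5.25 and 3.74, so it is not a member. Its H3K4me3 peaks in both libraries and the H3K27ac peak of replicate 2 ended at the same base, 11021956, and the H3K4me3 peaks of both libraries at the last member ended at 11060155. No peak of BRG1, NRF2 or SMARCC1, and no H3K4me1 peak at these 5 places, was listed in the gene. Of 579 coding genes that held members without an annotated start, 518 held 1 and 51 held 2, 8 held 3, SMARCA4 held 4 and SKIDA1 held 5. The form of the BRG1 construct, and the exons of the gene, are not given in the sources used here, and any part of the construct's own sequence in these peaks was not tested.

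**Figure D5:**
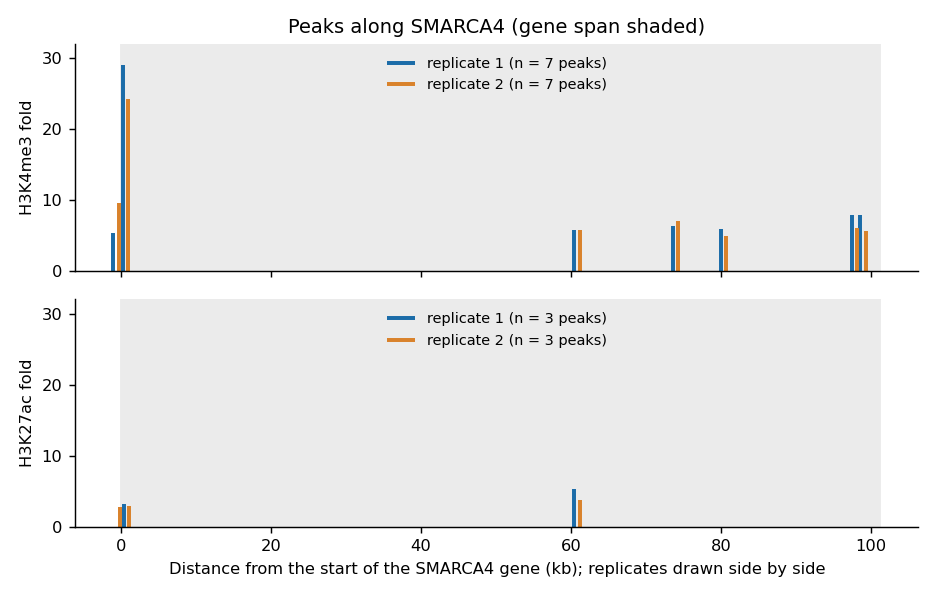
Fold enrichment of every listed H3K4me3 (top) and H3K27ac (bottom) peak along SMARCA4 (x, kb from the gene start; y, fold; replicates drawn side by side, gene span shaded). Beside the promoter peaks of 29.0 and 24.3, H3K4me3 peaks stand at 5 places from 60.7 to 98.6 kb, and H3K27ac has peaks at the first of these only.

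Members also formed runs in other genes. Joined over gaps of up to 20000 bp, 1325 members stood alone, 215 pairs formed and 37 runs held 3 or more. SKIDA1, a gene with a SKI and DACH-like domain, held 5 over 5 kb, with folds from 3.77 to 7.21 in replicate 1 and from 3.05 to 8.78 in replicate 2. PDE4A, a cyclic AMP phosphodiesterase, held 5 with folds from 3.32 to 5.195 in replicate 1, of which 4 lay at internal starts. NFIB, a transcription factor, held 4 at internal starts, 1 at 17.7 and 16.9 and the others from 3.89 to 4.32 in replicate 1. The H3K27ac region nearest to any of these NFIB members lay 973604 bp away.

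Of the 364 with no gene feature, counted over all chromosomes, 89 lay within the span of a noncoding gene away from its ends, 1 lay in a gene record of another kind and 274 lay outside every gene, at a median of 5625 bp from the nearest. The farthest lay 98169 bp from any gene, on chromosome 12. Per chromosome, members were from 8.48% of the H3K4me3 regions of chromosome 18 to 17.2% of those of chromosome 13.

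Factor sites were rare at members and in every other set compared. The lists held 2039 reproducible BRG1 regions, 383 of NRF2 and 169 of SMARCC1 in all. A BRG1 site, meaning a reproducible BRG1 region, lay in 2 members (0.107%, 0.0129 to 0.384), beside 0.716% of all H3K4me3 regions. It lay in 20 of 1701 acetylated regions off coding ends (1.18%). Unacetylated regions at coding ends were as poor in BRG1 sites as members, with 1 in 3932 (0.0254%, up to 0.142). Leaving out BRG1 replicate 1 or replicate 2, so that every peak of the other library counts, raised the members' share to 0.693% or 0.320%. The same choices gave 4.37% or 1.55% of all H3K4me3 regions. An NRF2 site lay in 8 (0.426%, 0.184 to 0.838), beside 0.953% of all H3K4me3 regions, which include those at tRNA genes, and beside 4 of 1701 acetylated regions off coding ends (0.235%, 0.0641 to 0.601) and 1 of 3932 unacetylated regions at coding ends (0.0254%). Without NRF2 replicate 2 the members' share was 0.799%, beside 1.91% of all H3K4me3 regions. No SMARCC1 site lay in any of 1877 members or in the 3932 unacetylated regions at coding ends. The share was 0.352% in all regions and 0.882% in acetylated regions off coding ends (15 of 1701). A count of 0 allows a share of up to 0.160% when taken as 3 counts of 1877, and the exact interval reaches 0.196%. Without SMARCC1 replicate 1 the members' share was 0.213%, beside 0.940% of all regions. H3K4me1 regions, typical of enhancers, met 64 members (3.41%, 2.64 to 4.33), beside 3.43% of all regions. They met 5.06% of acetylated regions off coding ends and 2.11% of unacetylated regions at coding ends. Without H3K4me1 replicate 2 the shares were 5.75% of members and 5.42% of all regions. The strongest of the 64 members were at USP39, MIR3195, ZNF37BP and CD24, with H3K4me1 folds between 2.84 and 4.09.

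Both members with a BRG1 site lay within 1 kb of internal coding starts. At RASEF, a small GTPase of the Rab family with EF-hands, H3K4me3 folds were 11.6 and 11.8 and BRG1 folds 3.22 and 5.88 (4.55 ± 1.88, SD, n = 2), with a weaker outer end of 4.11 and 2.47. At SCHIP1, a partner of the tumour suppressor NF2 product, H3K4me3 folds were 10.7 and 11.3 and BRG1 folds 2.22 and 2.45 (2.33 ± 0.160, SD, n = 2), with no H3K4me3 at the outer end. Both regions also overlapped an H3K27ac peak of replicate 2 only, so neither remains where peaks of either H3K27ac library count.

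Of the 8 members with an NRF2 site, 5 lay at Y RNA or vault RNA genes. NRF2 is the transcription factor of the oxidative stress response. NRF2 folds were 8.83 and 5.93 at VTRNA1-1, 5.21 and 4.32 at RNY3, 6.94 and 4.41 at RNY1 and 7.49 and 10.4 at RNY4, where both members share 1 NRF2 site. At NLN, which encodes the protease neurolysin, they were 4.95 and 3.49. The other 2, on chromosome 6, had no gene within 1 kb, lay 13673 bp and 13629 bp from a tRNA gene, and had 8.69 and 4.92, and 8.69 and 6.13. The latter was a weak H3K4me3 region, with H3K4me3 folds of 2.66 and 2.13 and −log10 q of 0.790 and 0. The antioxidant response element was looked for only at coding and lncRNA starts, so not at these small RNA genes.

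How often members touched an H3K27ac peak differed with strength. An H3K27ac peak of 1 or both libraries that did not join to a reproducible region touched 428 members (22.8%), including 8 of the 10 best ranked. The 412 with a peak of 1 library (21.9%) had it in replicate 1 in 173 cases and in replicate 2 in 239. That share was 9.04% in all H3K4me3 regions, which include acetylated ones, and 24.1% in unacetylated regions at coding ends. Another 16 members had peaks of both libraries that did not meet. Of the 470 strongest members, 189 (40.2%) had a peak of 1 or both libraries. In the next 3 groups of 469 by rank, 96 (20.5%), 65 (13.9%) and 78 (16.6%) did. Nearness to an acetylated H3K4me3 region ran the other way. The share with such a region within 3 kb was 14.0%, 22.2%, 29.6% and 39.9% from strongest to weakest. With no H3K27ac peak in either library, 1449 members remained. Absence of H3K27ac here means absence from a peak list, and, with depth unknown, low acetylation cannot be told from none.

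At the limits of the rule, the nearest regions on either side were as follows. The widest member, at ZFPM1, was 2992 bp with folds of 7.38 and 13.5, and the narrowest excluded region was 3023 bp with 23.4 and 23.1. The members nearest a coding end lay 1002 bp and 1005 bp away, with folds of 3.64 and 2.60 and of 3.50 and 3.11, and the nearest excluded ones lay 996 bp away. The member nearest H3K27ac lay 20 bp from it, and 13 members lay within 100 bp.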

How the data were processed

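CUT&RUN peak lists of 12 libraries (6 targets, 2 replicates each, grouped by target as titled in the labels) were read. Per the submitters' processing notes, Bowtie2 2.4.1, SAMtools 1.9, Picard 2.23.9, MACS2 2.2.7.1 and GRCh38 were used, with no settings given. Each peak carries the authors' fold enrichment (a ratio), −log10 p, −log10 q, a deposited score that was not used, and a summit offset. Whether folds are over IgG is not given in the sources used here, and no deposited file gives read counts, so depth is unknown.

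Reproducible regions were merged peaks of both replicates with 1 from each, touching peaks joined, and overlap meant 1 bp. A region's fold in a library was its highest peak there. Genes (19974 coding, 38068 noncoding) and starts came from RefSeq GRCh38.p14, with no exons and, for starts, no chromosome 8. Shares have exact intervals, and no test was run, since the rule used these values and each target has 2 libraries. Python 3.11.15, pandas 2.3.3, numpy 2.4.6 and scipy 1.17.1 were used, and overlap code was tested on simulated data. The members, lists, motifs and named regions (best mean rank, BRG1, NRF2 or SMARCC1 sites, each gene type, widest, listed genes, plus class leaders) were chosen with earlier results of these data known. The choice of SMARCA4 and the runs followed after their values were seen.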

Additional observations from a re-analysis of the deposited data

How the results depend on the processing

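The number of members was 697 with H3K4me3 peaks of −log10 q at least 5, 1138 with coding ends farther than 5 kb and 3032 with peaks of either replicate, and from 1622 to 2948 without 1 library. The share with a noncoding gene end was 36.7% with −log10 q at least 5, 31.2% with no H3K27ac within 1 kb, 37.2% with coding ends farther than 5 kb, 28.8% for widths under 1000 bp, 25.9% with either replicate, 29.1% by overlap with the gene span and 46.4% within 5 kb, and from 26.2% to 30.5% without 1 library. The share inside coding genes was 59.3% with no H3K27ac within 1 kb, 51.6% at 5 kb, 58.7% under 1000 bp and 65.4% with either replicate, and from 61.4% to 67.1% without 1 library.

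The share with an internal coding start, whose alternatives were chosen after seeing the data, was 39.6% with −log10 q at least 5, 24.5% with no H3K27ac peak of either library, 21.3% under 1000 bp, 21.1% with either replicate and 14.2% for starts inside the member, and from 22.3% to 25.7% without 1 library. The H3K4me1 share was 1.72% with −log10 q at least 5, 2.90% with no H3K27ac peak of either library, 2.64% at 5 kb, 3.79% with either replicate and 2.49% with overlap of 0.5 of the smaller interval, and from 3.02% to 5.75% without 1 library. The BRG1 share was 0.287% with −log10 q at least 5, 0% with no H3K27ac peak of either library, 0.176% at 5 kb and 0% under 1000 bp, and from 0% to 0.693% without 1 library. The NRF2 share was 0.574% with −log10 q at least 5, 0.525% with no H3K27ac within 1 kb, 0.527% at 5 kb, 0.539% under 1000 bp, 0.330% with either replicate and 0.318% with overlap of 0.5, and from 0.286% to 0.799% without 1 library. The SMARCC1 share was 0.213% without SMARCC1 replicate 1 and 0% in every other setting run. The median strength was 4.36 as −log10 q where it was 4.92 as fold. The cause of these shifts was not tested. No paired analysis was possible because the results come from no test. Peak lists hold no read counts, so the effect of depth cannot be given.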
